A study of Mus musculus with 18 samples.

Results

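The 10 endothelial genes described here code for receptors and junction proteins of the cells that line blood vessels and the inside of the heart: Kdr, Flt1, Flt4, Tie1, Tek, Eng, Cdh5, Pecam1, Cd34 and Efnb2. They were chosen by name, and every probe set annotated to one of these symbols was taken, 11 in all, out of 6137 genes with a probe set of their own on the arrays. Mouse embryos of embryonic day 9.5 were divided into 3 parts, and the middle one gave the RNA. The embryos were homozygous mutant (null), heterozygous (het) or wild type (wt) for Nkx2-5 (Csx), which codes for a heart transcription factor, and all 3 genotypes share the stage and the dissected part. The sources used here do not give the kind of mutant allele, the strain, the somite stage or the number of embryos behind an array. There are 18 arrays, 3 per genotype for both array types, which are called type a and type b after the letter in the labels. The replicate numbers are those of the labels, 3, 4 and 8 for het and 1, 5 and 7 for wt on both types. The null replicates are 2 and 6 on both types, with 8 on type a only (array 8a) and 9 on type b only (array 9b). Nothing in the labels ties the replicates to separate embryos, so the p-values cover the spread of these samples alone, and part of that spread may be technical. The replicates were not alike in content. Afp, a gene outside the lists used here, had 1775.2 in null 2, 1257.3 in het 4 and 1406.3 in wt 1 on type a. It had at most 233.8 on the other type a arrays. The same replicate of each genotype was highest on type b. Whether this difference takes part in the endothelial values was not tested.

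Endothelial cells form the first vessels of the embryo and its yolk sac and the endocardium, the inner lining of the heart tube. Vascular endothelial growth factors bind the receptors Kdr, Flt1 and Flt4 and drive the formation and sprouting of vessels, and the angiopoietins act through Tek, with Tie1 as its partner, to stabilise them. Cdh5 (VE-cadherin) and Pecam1 join neighbouring endothelial cells, and arteries and veins are told apart by the ligand Efnb2 and its receptor Ephb4. Mouse embryos without Nkx2-5 are known to arrest at the looping stage of the heart and to have vascular defects, and the comparison asks which endothelial genes were detected and whether they differed between genotypes. RNA came from whole tissue, so fewer endothelial cells and less RNA per endothelial cell cannot be told apart.

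Most of the endothelial genes were detected, but the arrays read out several of the best known ones poorly. Detection was judged against a floor of intensity, 375.1 on type a and 523.1 on type b, set at 2 SDs of the noise. Probe sets of Kdr, Tie1, Eng, Cdh5 and Efnb2 exceeded the floor on all 9 arrays of their type, and Cd34 did so on 8. Tek exceeded it on 4 arrays and Flt1 on 1, and Flt4, Pecam1 and a second Cdh5 probe set on none. The 7 probe sets above the floor on at least 3 arrays were tested, 1 for each of 7 genes. The other 4 were not, which leaves Flt1, Flt4 and Pecam1 without a test. None of the 7 passed in any comparison at an adjusted p under 0.05 (limma, Benjamini-Hochberg over all 6935 tested probe sets). Between null and wt, 0.692% of all tested probe sets passed (0.505% higher and 0.187% lower in null), and between null and het 1.15% (0.735% higher and 0.418% lower in null). Between het and wt it was 0%, with 0 probe sets in either direction. At an unadjusted p under 0.05 there were 0 of the 7 between null and wt, where 11.2% of all tested probe sets were, 0 between het and wt (1.7%) and 1, Eng, between null and het (15.7%).

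**Figure D1:**
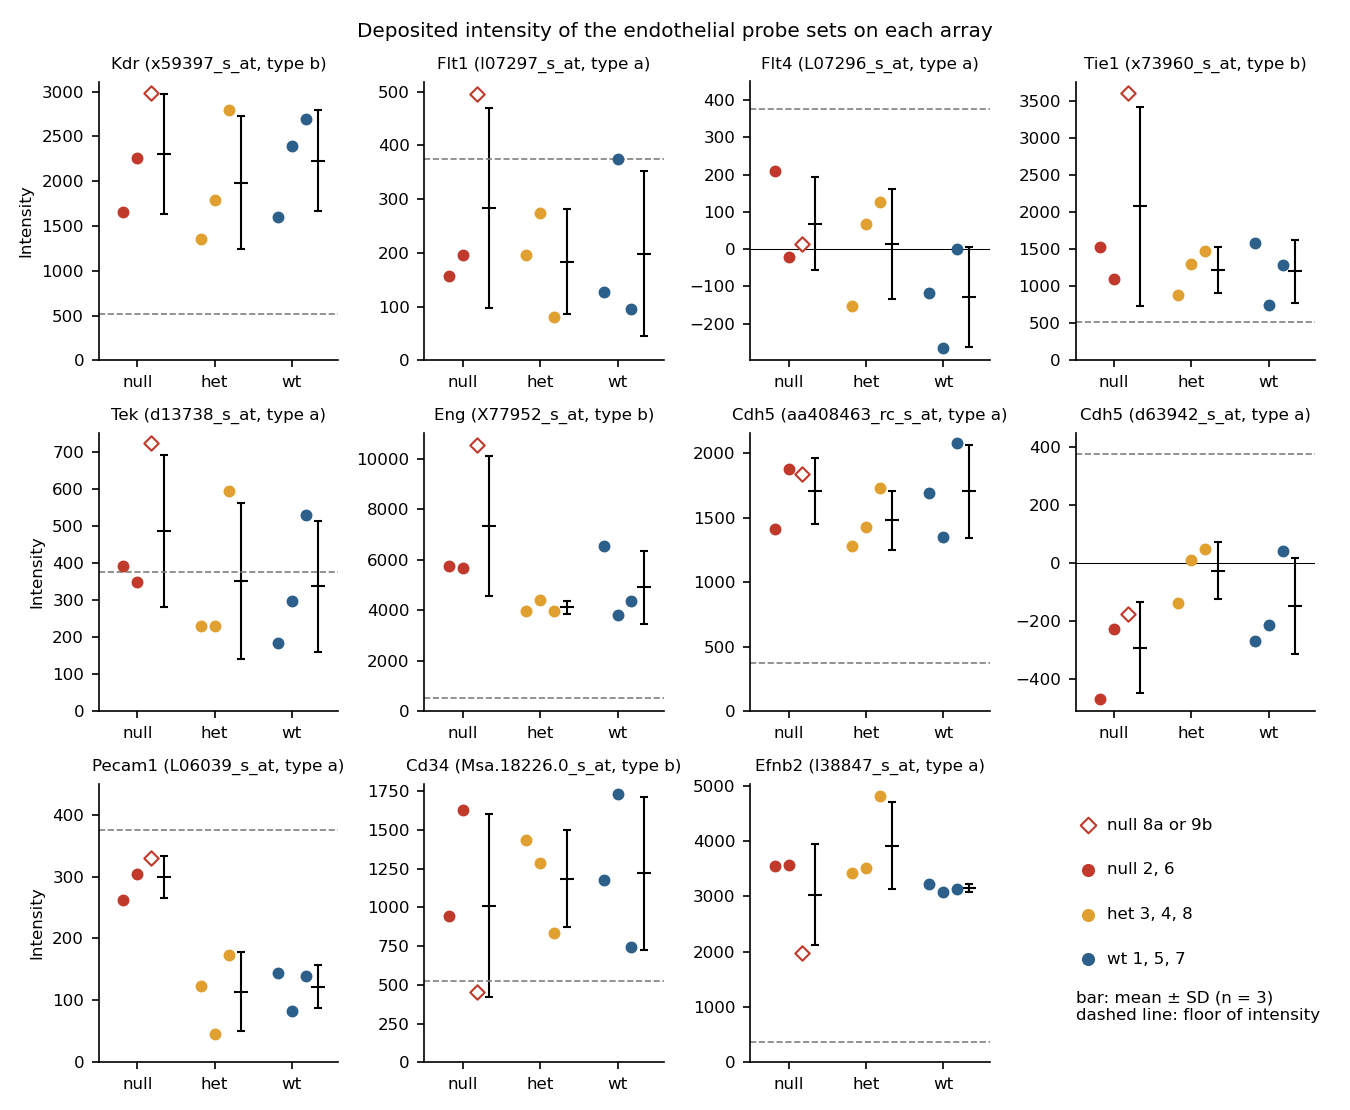
Deposited intensity (vertical axis, linear, own scale in each panel) of the 11 endothelial probe sets on every array, for null, het and wt from left to right, with the mean ± SD (n = 3) beside each group and the floor of intensity as a dashed line. Open diamonds are null arrays 8a and 9b: they lie at the top for Eng (10538.2) and Tie1 (3603.0) and at the bottom for Cd34 (456.7) and Efnb2 (1969.5), while Pecam1 is highest in the 3 null arrays but under the floor on every array.

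Null arrays 8a and 9b stood apart from the others of their type and bear on most of the values that follow. Their ratio of 3' to 5' actin signal, a sign of RNA shortening, was 2.50 on 8a and 2.28 on 9b, against 0.967 to 1.41 on the other type a arrays and 0.849 to 1.40 on the other type b arrays. The mean signal of the BioB control probe sets was also higher, 3950.1 on 8a and 4530.9 on 9b. It was at most 1538.8 on the other type a arrays and 2320.4 on the other type b arrays. Array 8a held the highest or lowest of 9 values for 40.0% of the tested probe sets of its type and array 9b for 38.0%, against 14.4% to 24.9% and 13.7% to 30.4% on the others. Of the 7 tested endothelial probe sets, 6 had their highest or lowest value on these arrays: Kdr, Tie1, Eng and Tek the highest, Cd34 and Efnb2 the lowest. Whether shortened RNA or the source of the higher BioB signal takes part in these values was not tested, and results are given with and without both arrays where they matter. The genotype labels were not checked through the mutated gene, since 0 probe sets are annotated to Nkx2-5. Het array 8 of type b has no value for 499 probe sets, none of them endothelial genes described here.

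Kdr (Vegfr2), the main signalling receptor for vascular endothelial growth factor and one of the earliest endothelial markers, did not separate the genotypes. Its intensity was 1654.2, 2259.2 and 2989.6 in null 2, 6 and 9b, then 1355.4, 1792.4 and 2798.8 in het 3, 4 and 8, and 1603.7, 2398.3 and 2690.5 in wt 1, 5 and 7. The 3 groups overlapped, and the spread within each was wider than the distance between their means. The log2 fold change was 0.037 between null and wt (SE 0.339, 95% interval -0.71 to 0.78, limma adjusted p = 0.980). It was -0.17 without array 9b. It was 0.24 between null and het (adjusted p = 0.774), or 0.029 without array 9b, and -0.20 between het and wt (adjusted p = 1). The interval for null against wt therefore holds changes of up to 0.78 upwards on the log2 scale.

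Flt1 (Vegfr1), a receptor that binds the growth factor tightly and can withhold it from Kdr, was at the edge of detection. It had 156.7 and 195.3 in null 2 and 6 and 496.5 on array 8a, then 80.1 to 274.0 in het and 95.6 to 374.4 in wt. Only array 8a exceeded the floor, and the groups overlapped. Flt4 (Vegfr3), which binds Vegfc and later marks lymphatic vessels, lay between -266.9 and 210.3 on the 9 arrays and was nowhere above the floor. No genotype can be compared for either gene at this signal.

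Tie1, an orphan receptor of endothelial cells that pairs with Tek, had the largest positive log2 fold change among the 7, and 1 array carried most of it. Its intensity was 1525.2, 1099.1 and 3603.0 in null 2, 6 and 9b, against 1577.6, 740.0 and 1290.0 in wt 1, 5 and 7. Nulls 2 and 6 lay within the wt range and only 9b above it. In het it was 875.1, 1296.5 and 1475.2, which overlaps both. The log2 fold change of null against wt was 0.67 (SE 0.453, 95% interval -0.33 to 1.66, adjusted p = 0.647), and 0.18 without array 9b. Null against het had 0.62 (adjusted p = 0.537), or 0.12 without array 9b, and het against wt 0.051 (adjusted p = 1).

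Tek (Tie2), the receptor of the angiopoietins, lay around the floor. It had 391.3, 347.9 and 723.4 in null 2, 6 and 8a, then 229.2, 231.1 and 594.9 in het 3, 4 and 8, and 183.6, 297.7 and 530.8 in wt 1, 5 and 7. Above the floor were 2 null arrays, 1 het array and 1 wt array, and the groups overlapped. The log2 fold change of null against wt was 0.17 (SE 0.286, adjusted p = 0.891), with values of every genotype raised to the floor, so neither its size nor its sign is settled. It was 0.58 with a floor of 1 noise SD and -0.14 without array 8a. Null against het had 0.11 (adjusted p = 0.879), or -0.19 without array 8a, and het against wt 0.055 (adjusted p = 1).

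Eng (endoglin), a coreceptor for ligands of the Tgf-beta family that is needed for vessel and endocardial development, came closest to a difference. Its intensity was 5763.9, 5688.3 and 10538.2 in null 2, 6 and 9b, against 3988.9, 4422.2 and 3962.7 in het 3, 4 and 8. All 3 null values lay above all 3 het values. Eng was the only one of the 7 whose groups did not overlap in that comparison, where this held for 23.5% of all tested probe sets, and for 10.2% with null higher. The log2 fold change of null against het was 0.77 (SE 0.270, 95% interval 0.18 to 1.36, unadjusted p = 0.0157 and adjusted p = 0.198 by limma), and it was 0.48 without array 9b. Wt had 6534.7, 3816.7 and 4379.5 in replicates 1, 5 and 7, so that wt 1 lay above nulls 2 and 6. In null against wt the groups overlapped for all 7, where 15.9% of all tested probe sets did not overlap and 7.38% did not with null higher. Null against wt had a log2 fold change for Eng of 0.55 (SE 0.270, 95% interval -0.039 to 1.15, adjusted p = 0.477), 0.26 without array 9b and 0.78 without wt 1. Het against wt had -0.21 (adjusted p = 1).

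Blood progenitors also carry Eng, Cd34 and Pecam1, and their own markers were read beside these genes. Of 10 markers 7 had a probe set and 2 were tested, Kit, a receptor of blood progenitors and germ cells, and Ptprc (CD45), which marks white blood cells. Runx1 exceeded the floor on 2 arrays and Gata1 on 1, while Spi1, Myb and Cd44 did so on none. The list's summed intensity, with negative values counted as 0, was 895.3 to 1262.0 in null, 744.4 to 778.9 in het and 735.3 to 1120.0 in wt on type b, where Eng is. On type a it was 2429.4 to 3127.4 in null, 2835.8 to 3532.5 in het and 2621.9 to 3932.3 in wt. Kit had 918.9 ± 195 in null, 495.1 ± 119 in het and 588.6 ± 119 in wt (SD, n = 3 each), with a log2 fold change of 0.70 in null against het (adjusted p = 0.131) and 0.57 in null against wt (adjusted p = 0.313). The part of blood progenitors in the Eng values was not tested.

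The promoters of Eng and Tie1, the members with the largest positive log2 fold changes between null and wt, are shown beside those of Cd34 and Efnb2, the tested members whose fold change was negative. Each is the 250 bases before the gene's start in RefSeq on build GRCm38, 5' to 3' on the gene's strand. Capitals mark GGAAG and its reverse complement CTTCC, the core that Ets factors, regulators of many endothelial genes, bind with 1 flanking base.
Eng, chr2:32646345-32646594, plus strand: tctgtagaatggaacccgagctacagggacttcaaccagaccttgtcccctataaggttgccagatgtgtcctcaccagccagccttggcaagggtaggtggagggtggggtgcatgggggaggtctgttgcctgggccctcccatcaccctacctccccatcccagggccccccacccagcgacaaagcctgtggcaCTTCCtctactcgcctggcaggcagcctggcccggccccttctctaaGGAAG
Tie1, chr4:118489850-118490099, minus strand: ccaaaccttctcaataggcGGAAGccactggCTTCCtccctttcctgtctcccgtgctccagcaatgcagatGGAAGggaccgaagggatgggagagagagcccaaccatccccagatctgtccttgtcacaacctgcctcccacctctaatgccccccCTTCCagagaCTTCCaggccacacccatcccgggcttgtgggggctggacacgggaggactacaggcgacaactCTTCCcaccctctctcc
Cd34, chr1:194938571-194938820, plus strand: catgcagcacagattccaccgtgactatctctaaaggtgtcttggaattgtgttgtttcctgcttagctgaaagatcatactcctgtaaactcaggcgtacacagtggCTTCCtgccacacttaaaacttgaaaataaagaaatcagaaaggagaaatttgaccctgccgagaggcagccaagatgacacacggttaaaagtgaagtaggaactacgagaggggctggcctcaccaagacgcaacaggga
Efnb2, chr8:8661243-8661492, minus strand: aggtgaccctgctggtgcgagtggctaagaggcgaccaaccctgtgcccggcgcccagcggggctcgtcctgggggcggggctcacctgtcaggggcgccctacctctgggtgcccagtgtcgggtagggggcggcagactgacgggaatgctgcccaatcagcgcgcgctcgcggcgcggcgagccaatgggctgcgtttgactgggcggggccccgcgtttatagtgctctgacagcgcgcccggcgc
The Eng window holds 2 matches on both strands together, the Tie1 window 6, the Cd34 window 1 and the Efnb2 window 0. Of the other tested members with a window, both with positive fold changes, the Kdr window holds 1 and the Tek window 0, so the count did not set the positive fold changes apart from the negative ones. Of the 8 endothelial genes with a RefSeq window, 6 have at least 1 match, and so do 64.1% of all 32851 windows of this length. The GC box GGGCGG, counted on both strands, occurs 3 times in the Efnb2 window, in none of the other windows shown, and in 32.7% of all windows. No window was available for Cdh5 and Pecam1. A match describes these letters only, not a bound site.

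Cdh5 (VE-cadherin), the cadherin of endothelial adherens junctions, did not separate the genotypes either. Its bright probe set had 1414.2, 1876.7 and 1838.3 in null 2, 6 and 8a, then 1280.4, 1430.5 and 1731.2 in het 3, 4 and 8, and 1690.0, 1352.6 and 2077.4 in wt 1, 5 and 7. The groups overlapped, and the log2 fold change of null against wt was 0.013 (SE 0.239, 95% interval -0.51 to 0.54, adjusted p = 0.992). Null against het had 0.21 (adjusted p = 0.711) and het against wt -0.19 (adjusted p = 1). The second Cdh5 probe set was under the floor on all arrays and was not tested. It lay between -469.2 and -176.9 in null, -137.2 and 47.3 in het, and -268.1 and 41.7 in wt. No difference is read from values at this level.

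Pecam1 (CD31), an adhesion molecule of endothelial cells, platelets and some blood cells, was under the floor on every array, but its null values stood apart from het and wt. It had 262.4, 303.9 and 329.6 in null 2, 6 and 8a, against 144.5, 82.9 and 140.1 in wt 1, 5 and 7, with 123.7, 45.9 and 173.6 in het 3, 4 and 8. All null values lay above all wt and all het values. Among the 6122 probe sets that were not tested, the null values all lay above wt for 4.82% and above het for 7.32%. Het values all lay above wt for 4.23% of them, and for none of the 4 endothelial probe sets that were not tested. With both groups under the floor of 2 noise SDs no fold is given at that setting. With a floor of 1 noise SD (187.5) Pecam1 entered the test through its null arrays alone. Every het and wt value was raised to that floor. The log2 fold change was then at least 0.66 in null against wt (limma unadjusted p = 0.00743, adjusted p = 0.246) and against het (adjusted p = 0.160). Because of that entry these p-values are not support for a difference.

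Cd34, a surface sialomucin of endothelial cells and blood progenitors, varied as much within genotypes as between them. It had 945.7, 1630.2 and 456.7 in null 2, 6 and 9b, then 1432.5, 1287.6 and 835.4 in het 3, 4 and 8, and 1174.6, 1733.2 and 747.3 in wt 1, 5 and 7. Array 9b was the only one under the floor. The log2 fold change of null against wt was -0.31 (SE 0.443, 95% interval -1.28 to 0.67, adjusted p = 0.880), and 0.11 without array 9b. Null against het had -0.31 (adjusted p = 0.775), or 0.10 without array 9b, and het against wt 0.0061 (adjusted p = 1).

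Efnb2 (ephrin-B2), the ligand that marks arterial endothelium and is also made by mesenchyme and nerve tissue, had the narrowest spread in wt and a wider one in the mutants. Its intensity was 3543.3, 3569.1 and 1969.5 in null 2, 6 and 8a, then 3415.1, 3515.5 and 4814.2 in het 3, 4 and 8, and 3228.4, 3085.8 and 3125.6 in wt 1, 5 and 7. Nulls 2 and 6 lay above every wt array and 8a below every other array. The log2 fold change of null against wt was -0.11 (SE 0.234, 95% interval -0.62 to 0.41, adjusted p = 0.918), and 0.18 without array 8a. All 3 het values lay above all 3 wt values, which held for 3.89% of all tested probe sets, while 6.73% did not overlap in either direction. Efnb2 was the only one of the 7 with no overlap there, with a log2 fold change of 0.30 (SE 0.234, 95% interval -0.22 to 0.81, adjusted p = 1). Null against het had -0.40 (adjusted p = 0.425), or -0.12 without array 8a.

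**Figure D2:**
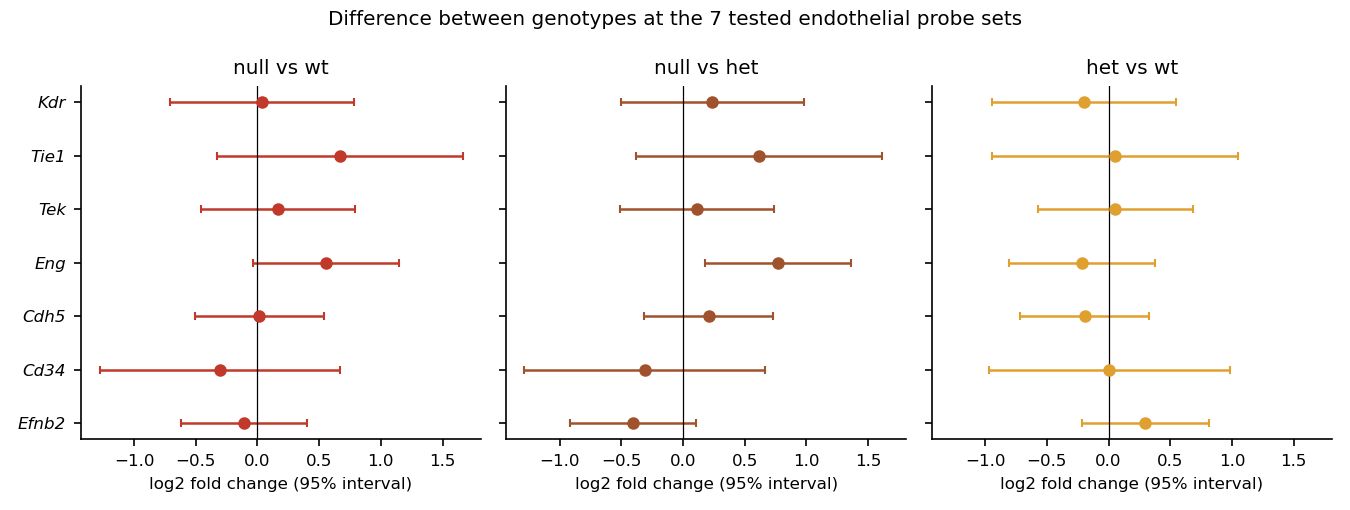
Log2 fold change with its 95% interval (limma, 3 arrays per genotype) for the 7 tested endothelial probe sets, in null against wt, null against het and het against wt from left to right. The interval leaves out 0 only for Eng in null against het (0.18 to 1.36), before adjustment over all probe sets.

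Read together, the 7 tested genes showed no common direction in null against wt. Of these genes 5 had a positive and 2 a negative log2 fold change, with a median of 0.037, where the median of all tested probe sets was -0.025 and 46.9% were positive. In null against het 5 were positive (median 0.21, against -0.071 and 42.4% over all), and in het against wt 4 were positive (median 0.0061, against 0.030 and 56.1%). Per replicate, the median deviation of the 7 genes from the wt mean on the log2 scale was -0.11, 0.16 and 0.46 in null 2, null 6 and the arrays 8a and 9b combined. It was -0.26, -0.11 and 0.36 in het 3, 4 and 8 and 0.030, -0.17 and 0.17 in wt 1, 5 and 7. Arrays 8a and 9b carry different numbers, and the labels do not say whether they hold the same RNA, so their combined value may mix separate samples. Every null value except that of 8a and 9b lay within the range of the het and wt replicates. The comparisons share arrays, so their values are not independent of each other.

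**Figure D3:**
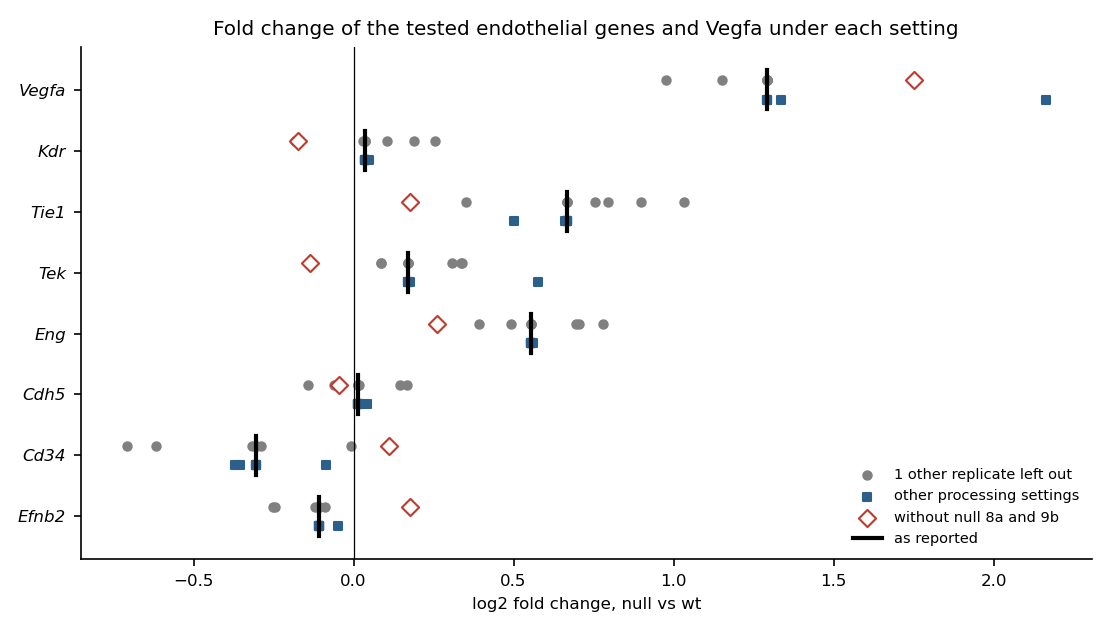
Log2 fold change of null against wt (horizontal axis) for Vegfa and the 7 tested endothelial genes under each processing setting: black bars as reported, grey points with 1 other replicate left out, open diamonds without arrays 8a and 9b, blue squares under other settings. Without 8a and 9b the value moves towards 0 for Tie1 (0.18) and Eng (0.26), is negative for Kdr (-0.17) and positive for Cd34 (0.11) and Efnb2 (0.18), and is higher for Vegfa (1.75).

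Among the ligands of these receptors, Vegfa had the largest log2 fold change. Vegfa, the growth factor that binds Kdr and Flt1 and is induced when oxygen is low, had 1119.9, 1425.8 and 486.7 in null 2, 6 and 8a, against 112.5, 177.9 and 245.4 in wt 1, 5 and 7. In het 3, 4 and 8 it had 344.0, 140.3 and 404.2. Every null array exceeded the floor and every wt array lay under it, and no null value reached down to the het values. Null lay wholly above wt for 7.38% of all tested probe sets and wholly above het for 10.2%. The null mean was at least 2.45-fold that of wt, a log2 fold change of at least 1.29 (SE 0.324, limma unadjusted p = 0.00196), which did not pass over all probe sets (adjusted p = 0.119). Outside null only het 8 exceeded the floor, so Vegfa entered the test through the null arrays. All wt values were raised to the floor and had no spread in the fit. The p-values given here for Vegfa are therefore not support for a difference. Over 15 alternatives the adjusted p was 0.00707 to 0.423, and it passed in 1 of them, without arrays 8a and 9b (log2 fold change of at least 1.75, adjusted p = 0.00707). With a floor of 1 noise SD the log2 fold change was at least 2.16. Null against het had at least 1.26 (adjusted p = 0.0891, with 0.00853 to 0.325 over the same alternatives). Kdr, its receptor, was measured on the other array type in the same genotypes and had a log2 fold change of 0.037.

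The other ligands and coreceptors did not pass either. Of the 7 genes of Vegf ligands and coreceptors 6 had a probe set and 4 were tested, 3 of them with a positive log2 fold change in null against wt. Vegfb, a ligand of Flt1, had 2878.5, 2493.2 and 6464.6 in null 2, 6 and 8a, against 3025.7, 2796.7 and 2968.0 in wt, so that only 8a lay above wt. Its log2 fold change was 0.30 (adjusted p = 0.784), or -0.13 without 8a. Nrp1, a coreceptor of Kdr, had 0.079 (adjusted p = 0.960), or -0.30 without 8a. Pgf, another ligand of Flt1, had -0.22 (adjusted p = 0.907), or 0.032 without 9b. Vegfc, the ligand of Flt4, exceeded the floor on 2 arrays, both null, with 427.7, 414.4 and 249.0 in null 2, 6 and 8a, against 149.9 to 318.6 in wt. For the angiopoietins, Angpt2, which mostly opposes Angpt1, had a log2 fold change of 0.19 in null against wt (limma adjusted p = 0.890), with 598.6, 96.9 and 514.7 in null 2, 6 and 8a against 324.6, 551.5 and 245.8 in wt. Angpt1, the activating ligand of Tek, was above the floor on 2 arrays and lay between 293.8 and 325.4 in null, 351.6 and 456.9 in het, and 146.2 and 442.0 in wt. Angptl4, an angiopoietin-like protein of lipid metabolism, was under the floor in every null array and in 2 of 3 wt arrays, so no fold is read from its log2 value of -0.13 (adjusted p = 0.880).

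Partners of Eng were close to the floor or did not pass. Acvrl1 (Alk1), the receptor kinase that Eng assists in endothelial cells, had 345.7, 358.4 and 448.4 in null 2, 6 and 8a and 306.3 to 385.8 in het, against 252.4 to 293.2 in wt. All null values and all het values lay above all wt values, which held for 4.82% of the probe sets not tested in null and 4.23% in het. Only 2 of the 9 arrays exceeded the floor, and Acvrl1 was not tested. Tgfbr2, a type 2 receptor for Tgf-beta, lay between -66.5 and 62.0. Of the 14 genes of the endoglin and Tgf-beta receptor pathway 6 were tested and none passed, with log2 fold changes in null against wt from -0.28 for Smad1, a signal carrier of Bmp receptors (-0.10 without 8a), to 0.27 for Id1, one of its target genes.

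No junction partner passed. Of 16 genes 8 were tested, 4 with a positive and 4 with a negative log2 fold change and a median of 0.00143. The catenins that tie Cdh5 to actin had 0.010 (Ctnna1, SE 0.151, 95% interval -0.32 to 0.34), -0.0076 (Ctnnd1, SE 0.240) and -0.44 (Ctnnb1, SE 0.278, adjusted p = 0.614). Without array 8a, where Ctnnb1 was lowest, its value was -0.14. Both probe sets of Jup, a catenin of desmosomes and adherens junctions, were above the floor on fewer than 3 arrays. The smallest unadjusted p in each direction belonged to Cdh1, the cadherin of epithelia, with 0.61 (adjusted p = 0.421), and to Jam3, a junctional adhesion molecule. Jam3 was under the floor in every null array and in 1 wt array, and its log2 fold change with values raised to the floor was -0.50 (adjusted p = 0.569).

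No gene of the ephrin and Notch list, which sets arteries and veins apart, passed. Of 15 genes 8 were tested, 6 with a negative log2 fold change in null against wt and a median of -0.25. Notch1, a receptor of arterial specification and of many other tissues, had 893.2 ± 302 in null, 1193.0 ± 194 in het and 1489.4 ± 325 in wt (SD, n = 3 each) at its brighter probe set, with a log2 fold change of -0.77 (adjusted p = 0.405), or -0.50 without 9b. Efna1, an ephrin induced in vessels, had 0.61 (adjusted p = 0.352). Ephb4, the receptor of Efnb2, had no probe set of its own.

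Among 31 other endothelial genes 12 were tested and none passed, 8 with a positive log2 fold change and a median of 0.17. Cd93, a lectin-like receptor of endothelial cells and early blood cells, had 1780.3 ± 274 in null, 1150.0 ± 282 in het and 1172.0 ± 53.5 in wt (SD, n = 3 each), with a log2 fold change of 0.59 in null against wt (SE 0.246, adjusted p = 0.391). Its lowest null value, 1515.3, lay above its highest wt value, 1203.2, and above its highest het value, 1474.1. Null lay wholly above wt in this way for 7.38% of all tested probe sets, and above het for 10.2%. Gata2, a regulator of blood stem cells and endothelium, had -0.77 (SE 0.322, adjusted p = 0.391), with 528.3 ± 166 in null, 738.2 ± 191 in het and 916.6 ± 273 in wt.

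**Figure D4:**
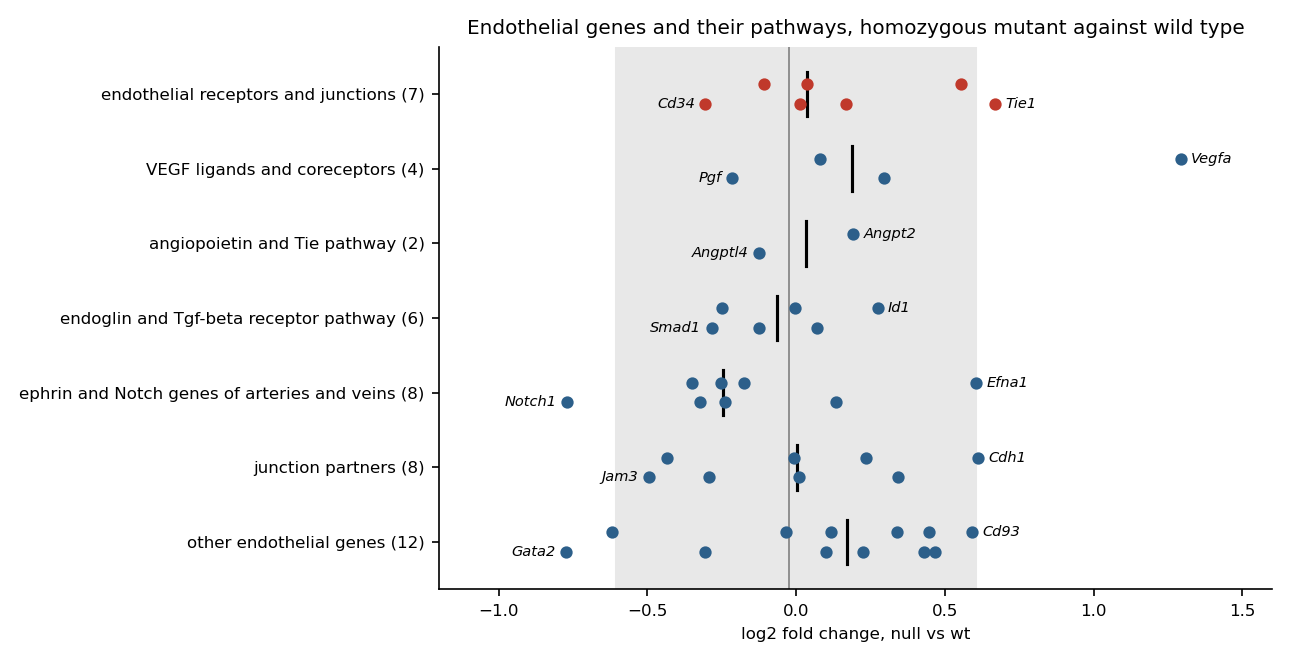
Log2 fold change of null against wt for the tested genes of each list (1 point per gene at its brightest tested probe set, number of genes in brackets, black bar at the median). The grey band holds the middle of all tested probe sets, from the percentile 5 (-0.61) to the percentile 95 (0.61), and of the endothelial receptors and junction genes only Tie1 (0.67) lies outside it.

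Other cell types of the dissected part were read through their own markers, as summed intensity with negative values counted as 0. Mural and smooth muscle markers, of cells that wrap vessels, summed to 46663 to 61300 in null, 35551 to 47712 in het and 43846 to 56709 in wt on type b. Heart muscle markers summed to 36367 to 108046 in null, 30840.0 to 70544 in het and 45779 to 70942 in wt on type a. Erythroid markers, which fill the same vessels, summed to 98961 to 209941 in null, 136104 to 157265 in het and 118869 to 162869 in wt on type b. These 3 sums overlapped between genotypes. Globins make up most of the erythroid sum, so it says little of the other erythroid markers. Of the 6 erythroid genes tested, 3 had a positive and 3 a negative log2 fold change in null against wt, and none passed. These ranged from -0.53 for Slc4a1 (limma adjusted p = 0.388) to 0.16 for Hbb-y. Neural markers summed to 5073 to 8397 in null, 11256.5 to 16859 in het and 11493 to 15345.5 in wt on type a, with every null array below every het and wt array. All 5 neural genes tested had a negative log2 fold change in null against wt (median -1.07) and in null against het (median -1.26). The largest fall in null against wt was that of Tubb3, -1.95 (limma adjusted p = 0.0609). Among the 5, Hes5, a target of Notch in neural progenitors, was the only one to pass, and only in null against het. It had 1272.6 ± 413 in null, 2949.8 ± 291 in het and 2624.0 ± 509 in wt (SD, n = 3 each), and fell by 1.26 on the log2 scale in null against het (SE 0.245, limma adjusted p = 0.0335). Its adjusted p was over the threshold without null 6 (0.0893), array 8a (0.0755), het 3 (0.117), het 4 (0.152), het 8 (0.0910) or wt 5 (0.0508). Null against wt had -1.07 (adjusted p = 0.0820). Efnb2 and Notch1 are also made by nerve tissue, and its part in their values was not tested. The 11 endothelial probe sets, summed in the same way, came to 5372 to 6293 in null, 5245 to 7569 in het and 5193 to 6012 in wt on type a. On type b, where none is negative, they summed to 9889 to 17588 in null, 7652 to 9072 in het and 8688 to 10891 in wt. The null sums lay above het and overlapped wt. Of the 4 probe sets summed there Eng was the brightest on every array, so this repeats the Eng values and says little of the others. Kdr, Tie1 and Cd34 each overlapped between null and het. Among single tested probe sets, null lay wholly above het for 10.2%.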

How the data were processed

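Expression was measured on 18 one-colour oligonucleotide arrays. The authors deposited intensity per probe set on a linear scale with background subtracted, read from the values (13.5% to 27.7% negative); the sources used here do not name the authors' software, background correction or scaling, and their scaling was kept. Control probe sets were left out (61 per type), which left 13057, of which 7542 had 1 gene symbol in the platform annotation, updated through RefSeq gene identifiers. Values under the floor (2 noise SDs; the noise SD, from the negative values, was 187.5 on type a and 261.5 on type b) were raised to it before log2. Precision is limited by the 3 arrays per genotype and type. Probe sets above the floor on at least 3 of 9 arrays entered limma 3.58.1 under R 4.3.3 (two-sided; lmFit, eBayes with trend), one fit per type over all genotypes, adjusted over both types. Alternatives covered the floor, the filter, quantile normalization, the trend, the arrays fitted and each replicate left out. On simulated data of 6931 probe sets for null against wt, 53.0% of true log2 changes of 1 and 93.0% of changes of 2 were called. Of 157 calls there, 11 were false. The changes were placed only in bright probe sets well above the floor. These rates therefore do not cover Tek, Cd34 and Tie1, which were dimmer than that. Members and lists were chosen with earlier results of these data known. Every endothelial probe set is described; of the related lists the text names genes past the threshold, the smallest unadjusted p in each direction, and direct ligands and partners.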

Additional observations from a re-analysis of the deposited data

How the results depend on the processing

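No endothelial probe set passed under any of 17 alternatives in any comparison, with the lowest adjusted p among them 0.246 in null against wt, 0.154 in null against het and 0.9997 in het against wt. The median log2 fold change of these genes was 0.017 to 0.25 in null against wt (0.037 as reported). It was 0.0035 to 0.34 in null against het (0.21) and -0.18 to 0.040 in het against wt (0.0061). Each move was under the pooled SD between replicates, 0.267, with arrays 8a and 9b taken as a replicate. That SD is larger than each reported median, so the medians are not shown to be stable. No paired analysis was possible because nothing in the labels pairs samples across genotypes. Over all probe sets the count in null against wt (48) was 8 without null 2, 14 without null 6, 14 without wt 5, 15 without wt 7 and up to 48 with another replicate left out, 19 with no filter on low signal and 7 with only the compared genotypes fitted. In null against het (80) it was 23 without null 2, 15 without het 3, 16 without het 4, 40 without het 8 and up to 72 otherwise, 45 with no filter and 40 with only the compared genotypes. In het against wt (0, with 118 at an unadjusted p under 0.05 by limma) it was 1 without het 8 and 1 without wt 7. Signs of log2 fold changes near 0 turned, and the cause was not tested. With 1 replicate left out, null against wt ranged from -0.050 to 0.066 for Ctnna1, -0.25 to 0.18 for Efnb2, -0.13 to 0.56 for Vegfb, -0.11 to 0.11 for Ctnnd1, -0.18 to 0.25 for Kdr, -0.14 to 0.17 for Cdh5, -0.30 to 0.39 for Nrp1, -0.71 to 0.11 for Cd34, -0.71 to 0.032 for Pgf and -0.14 to 0.34 for Tek; without null arrays 8a and 9b Cdh5 had -0.045 and Pgf 0.032. Het against wt ranged from -0.38 to 0.011 for Eng, -0.48 to 0.040 for Kdr, -0.26 to 0.28 for Tie1, -0.30 to 0.30 for Cd34 and -0.17 to 0.22 for Tek, and null against het from -0.0027 to 0.52 for Kdr, -0.72 to 0.10 for Cd34 and -0.19 to 0.34 for Tek. After quantile normalization Ctnna1 had -0.068 in null against wt, and in het against wt Tie1 had -0.10 and Cd34 -0.18. With a floor of 4 noise SDs Pgf had 0.12 in null against wt, and in het against wt Tie1 had -0.030 and Cd34 -0.047. Hes5 in null against het had an adjusted p of 0.0311 to 0.152 and passed under 9 of 17 alternatives; it did not with no filter (0.139) or with only the compared genotypes (0.0810). Low signal limits Flt1, Flt4, Pecam1 and Tek.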
